A study of Danio rerio with 4 samples.

Results

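Expression of 5 Ensembl gene IDs that stand for classical mammalian pericyte markers was examined in EGFP-positive cells sorted from adult zebrafish brain. They are CSPG4 (ENSDARG00000078227), 3 IDs that share the name ANPEP (ENSDARG00000036809, ENSDARG00000097285 and ENSDARG00000103878) and NDUFA4L2 (ENSDARG00000103114). They were chosen by name out of 32105 IDs in the count table, and every ID carrying one of these 3 names was included. Fish of wildtype genotype carried the transgene labelled pdgfr beta egfp, so the sort followed the regulatory sequence of the PDGF receptor gene and not any of these 5. There is a single group of 4 libraries with no other sorted population or control, each library pooling 6 adult brains and made from amplified RNA. The design text names 3 preparations while 4 samples are listed, and a cell type tag reads muLEC whereas titles and source names read pericyte.

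Pericytes are the mural cells embedded in the basement membrane of capillaries, and in mammals they are recognised by a small set of surface proteins. CSPG4, also called NG2, is a transmembrane chondroitin sulfate proteoglycan that mammalian oligodendrocyte precursors carry as well. ANPEP, also called CD13, is a membrane-bound zinc aminopeptidase that trims the amino terminus of peptides and is also found in mammals on myeloid cells and fibroblasts. NDUFA4L2 is a mitochondrial paralogue of the complex IV subunit NDUFA4 and is a target of hypoxia-inducible factor in human cells. Zebrafish often hold more than 1 copy of a mammalian gene, which raises the question of which copy carries the signal.

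Total counts were between 33270774 and 40441253 reads per library. Libraries are named B1 to B4 after the table's columns, which cannot be tied to single sample entries. Levels are given in CPM, the reads of a gene relative to all reads of its scaled library, and carry no correction for transcript length, since no transcript lengths were used here. A longer transcript collects more reads at the same abundance, so all statements that set one gene beside another concern read counts. At these depths 3 counts corresponded to between 0.0751 and 0.0879 CPM. The labels separate the pools by replicate number alone, as each held 6 brains. The p-values reflect variation from pool to pool, part of which may be technical. They and the SDs treat the 4 libraries as independent. With 3 preparations named in the design text, some libraries may share a preparation. In bulk libraries of this kind, fewer cells of a type and less RNA per cell cannot be told apart. Of the 5 IDs, 3 passed the filter of at least 1 CPM in at least 2 libraries, namely ANPEP ENSDARG00000036809, NDUFA4L2 and CSPG4, the last through B1 and B2 alone.

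Nearly all ANPEP counts came from a single ID. ENSDARG00000036809 had 638, 1792, 1002 and 1712 counts in libraries B1 to B4. ENSDARG00000097285 had 5, 0, 0 and 9 counts in the same libraries, and ENSDARG00000103878 had 1, 2, 0 and 0. The counts of the first ID thus lay far above those of the other two in all 4 libraries, with no overlap. ENSDARG00000036809 held 99.1% of the ANPEP-named counts in B1 (95% exact binomial interval 98 to 99.7%), 99.9% in B2 (99.6 to 99.99%), 100% in B3 (from 99.6%) and 99.5% in B4 (99.0 to 99.8%). Its mean share was 99.6 ± 0.425% (SD, n = 4). These intervals cover counting error only, because the RNA was amplified and no molecular identifiers are described.

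Over all libraries ENSDARG00000036809 had 5144 counts, against 14 for ENSDARG00000097285 and 3 for ENSDARG00000103878. The ratio of these pooled counts was 367 against ENSDARG00000097285 (95% interval 219 to 673) and 1715 against ENSDARG00000103878 (586 to 8317). These intervals pool the reads of all libraries, so they cover counting error only and leave out variation between libraries. Within libraries the ratio to ENSDARG00000097285 was 128 in B1 and 190 in B4, both under that interval. To ENSDARG00000103878 it was 638 in B1 and 896 in B2. Elsewhere the lesser ID had no count and the ratio was undefined. In B3 neither of the lesser IDs had a count, which allows a share of up to 0.367% for each by the same exact interval. Within each library ENSDARG00000036809 exceeded both, in 4 of 4 libraries. The exact two-sided sign-flip test over 4 libraries gave an adjusted p of 0.167 for each of these pairs (Benjamini-Hochberg over 8 comparisons), from the smallest unadjusted value this design allows, which is above 0.05. ENSDARG00000103878 was above ENSDARG00000097285 in 1 of 4 libraries (exact sign-flip p = 0.5, adjusted 0.571), and both stood near the level that 3 counts give. The deposited counts do not show how reads matching several near-identical copies were assigned, so the split between copies is uncertain to that extent.

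**Figure D1:**
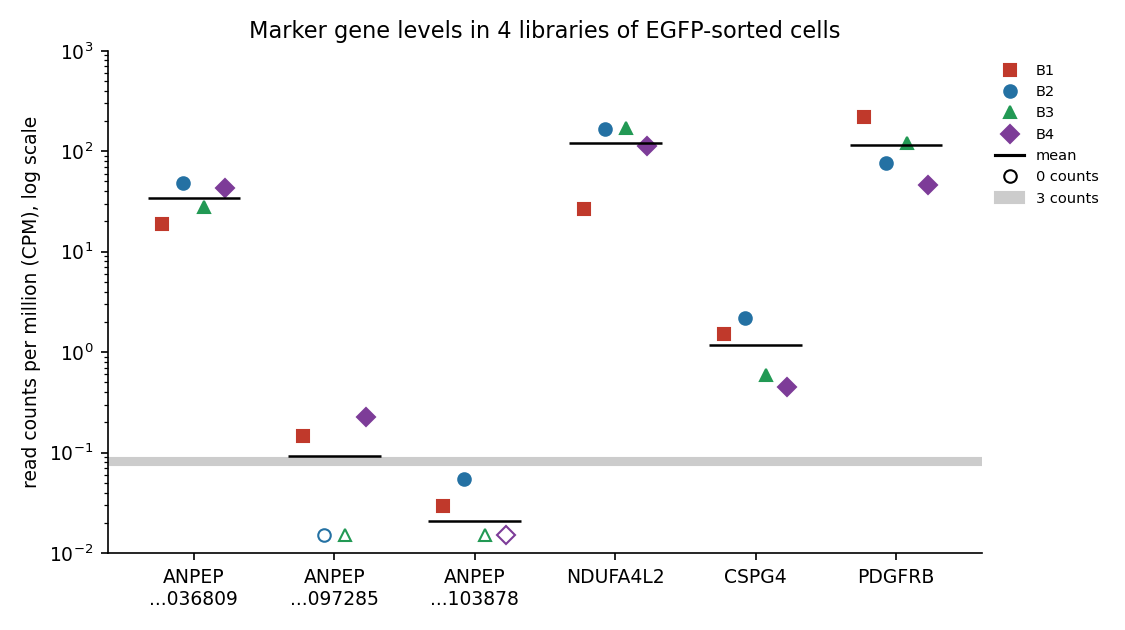
CPM on a log axis for the 5 marker IDs and PDGFRB in libraries B1 to B4, with the mean as a bar, libraries without a count as open symbols at the bottom and the range that 3 counts give as a grey band. ANPEP ENSDARG00000036809 lies far above the band and the other ANPEP IDs reach at most 0.225 CPM, NDUFA4L2 is lowest in B1 at 26.8 CPM, and CSPG4 lies between 0.45 and 2.19 CPM.

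Relatives with similar names were then set beside the markers, a set taken by name after the tables had been opened. Among 5 IDs whose names begin with anpep, ENSDARG00000036809 held 92.6 ± 2.77% of the counts (SD, n = 4), from 88.9% in B1 to 95.3% in B4. The like-named anpeplb (ENSDARG00000041083) held 4.34 ± 2.70% at 1.33 ± 0.290 CPM, and anpepla (ENSDARG00000089706) held 2.65 ± 0.841% at 1.02 ± 0.654 CPM. NDUFA4L2 had a sister ID, ndufa4l2b (ENSDARG00000087907), with 4 counts in B1 and 0 in B2, B3 and B4. NDUFA4L2 therefore held between 99.6 and 100% of the counts of that pair. CSPG4 was different, as it did not hold most of the counts among its 2 relatives and itself. It held 43.7 ± 16.7% of the counts of the 3 IDs named cspg4, cspg4ba (ENSDARG00000076735) held 44.5 ± 20.7% and cspg4bb (ENSDARG00000075600) held 11.7 ± 11.4%. The share of CSPG4 was 50.5, 46.8, 19.6 and 58.1% in B1 to B4, so the order of CSPG4 and cspg4ba was not the same in every library. These shares rest on 172 CSPG4, 181 cspg4ba and 61 cspg4bb counts over all libraries, and the change in order was not tested. The cspg4bb counts were 1, 48, 9 and 3 in B1 to B4, so they came mostly from B2 and did not exceed 3 in B1 or B4.

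**Figure D2:**
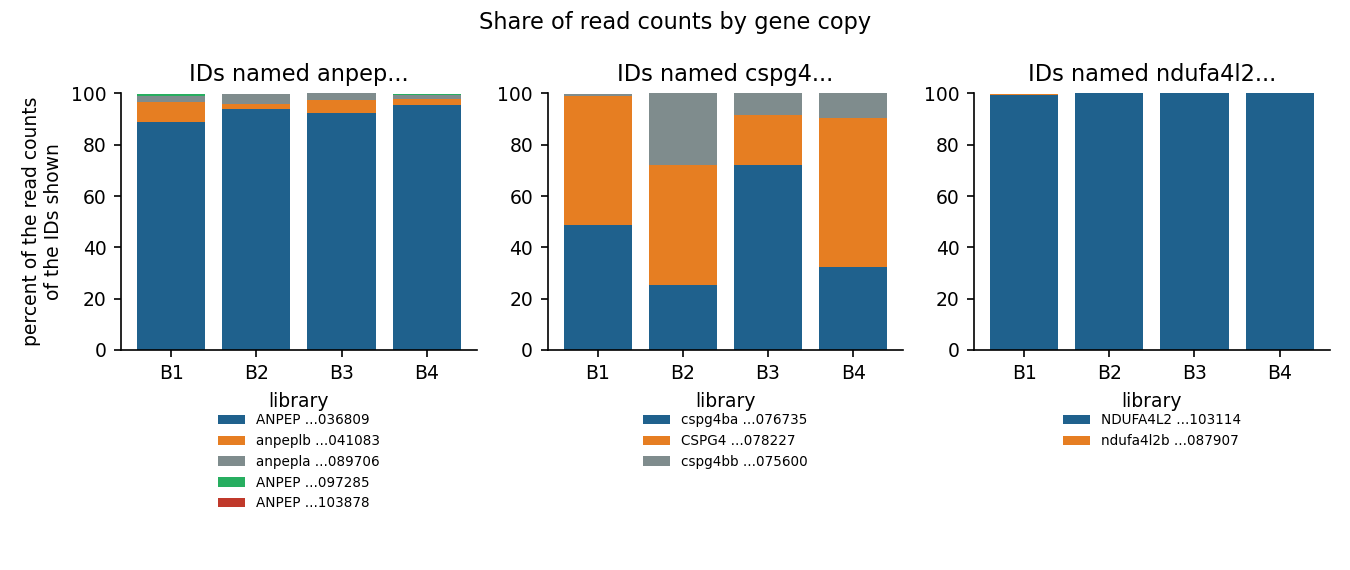
Percent of the read counts of like-named IDs held by each ID in libraries B1 to B4, for names beginning with anpep, cspg4 and ndufa4l2. A single ID fills most of the bar for anpep and ndufa4l2, while 3 IDs divide the cspg4 bar in changing proportions.

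A RefSeq table of the assembly GRCz12tu, later than the build of the counts, names anpepa, anpepla, anpeplb and anpepb.1 as separate genes. In it anpepla and anpepa are direct neighbours among protein-coding genes, and anpepb.1 and anpeplb have other neighbours. That table does not pair its entries with Ensembl IDs, so which of anpepa and anpepb.1 corresponds to ENSDARG00000036809 was not settled.

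ANPEP ENSDARG00000036809 stood at 18.7, 48.5, 28.0 and 42.8 CPM in B1 to B4. It was lowest in B1 and highest in B2, a 2.60-fold range, and averaged 34.5 ± 13.6 CPM (SD, n = 4). Its read count level was tested against that of the median tested gene, at 12.6 CPM, with edgeR's quasi-likelihood test and Benjamini-Hochberg adjustment over 17283 genes. ANPEP lay 1.45 ± 0.28 (SE) log2 units above this reference level (adjusted p = 0.00173). Of all tested genes 36.8% were called above the level and 33.2% below it, so a call by itself is common. By mean CPM this ID stood at percentile 75.2 of tested genes. In the YuGene score, which the authors set within each library on a scale from 0 to 1, it had 0.441, 0.692, 0.565 and 0.675 in B1 to B4, again lowest in B1.

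ANPEP belongs to a group of peptidases that act at the cell surface or trim peptides. Apart from ANPEP, 14 genes of a list of membrane and related peptidases were tested. Beside 36.8% above and 33.2% below over all tested genes, 5 of the 14 were called above the reference level, 3 below and 6 not at all. Those above were ace, the angiotensin-converting enzyme gene, at 91.0 ± 23.7 CPM, the puromycin-sensitive aminopeptidase gene NPEPPS at 74.6 ± 3.13 CPM, the insulin-regulated aminopeptidase gene LNPEP at 37.5 ± 1.41 CPM and 2 IDs named ERAP1, an aminopeptidase of the endoplasmic reticulum. The ERAP1 IDs stood at 28.7 ± 15.1 CPM (ENSDARG00000021859) and 21.7 ± 7.53 CPM (ENSDARG00000013024). The calls of both ERAP1 IDs were lost without B3 or without B4, and that of the second also without B2 (edgeR log2 level between 0.53 and 0.96 in these cases, adjusted p between 0.0643 and 0.2). The ratio of the highest to the lowest library, 2.60 for ANPEP, was 1.10 for NPEPPS, 1.09 for LNPEP and 1.74 for ace, and 3.03 for the first of the ERAP1 IDs. It was higher still for PHEX at 6.08, the carboxypeptidase M gene at 6.56 and erap2 at 6.69. The highest was 51.3 for the serine protease gene fap, which had 3 counts in its lowest library, B4. ANPEP was thus neither among the steadiest nor among the most variable peptidases.

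Below the reference level lay ENPEP, the glutamyl aminopeptidase gene that is also a pericyte marker in mouse brain, at 0.615, 0.758, 1.68 and 1.15 CPM in B1 to B4 (edgeR log2 level -3.59, adjusted p = 0.00108). It failed the filter and had no test without B3 or without B4. The carboxypeptidase gene CPD at 6.70 ± 1.86 CPM and fap, a fibroblast-associated serine protease gene, at 1.80 ± 1.90 CPM were also below. The mean of fap was 1.12 CPM without B3 its call was lost without B1 (edgeR log2 -2.45, adjusted p = 0.0508), and it failed the filter without B2 or B3. That of CPD was lost without B2 or B4 (-0.90 and -0.91, edgeR adjusted p = 0.0692 and 0.0781). PHEX at 25 ± 22.9, ECE2 at 19.3 ± 18.5 and ECE1 at 9.76 ± 6.12 CPM passed the filter but were called in neither direction. The same held for RNPEP at 8.89 ± 2.68, erap2 at 7.83 ± 5.85 and the carboxypeptidase M gene, whose symbol is also CPM, at 6.60 ± 3.56 CPM. PHEX was called above without B1 and by DESeq2, and the carboxypeptidase M gene was called below in both cases. Without B3 the mean of PHEX was 13.6, and without B1 that of ECE2 was 10.04 CPM. Calls of lists here and further on are relative to a level that the filter sets. Without the filter that level was 3.14 CPM, and 12 of 18 peptidases were above and 5 below. Over all genes 12310 of 28308 were then above and 11536 below. Without B2 the list apart from ANPEP had 4 of 13 IDs above and 1 below, beside 5558 and 4587 of 16844 genes. Without B3 it had 3 of 12 above and 1 below, beside 5466 and 4468 of 16748 genes. Without B4 it had 3 of 13 above and 1 below, beside 5405 and 4308 of 16748 genes. Fewer calls without B2, B3 or B4 were thus seen over all genes too. The dipeptidyl peptidase gene dpp4 did not pass the filter, at 0.264 ± 0.190 CPM.

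**Figure D3:**
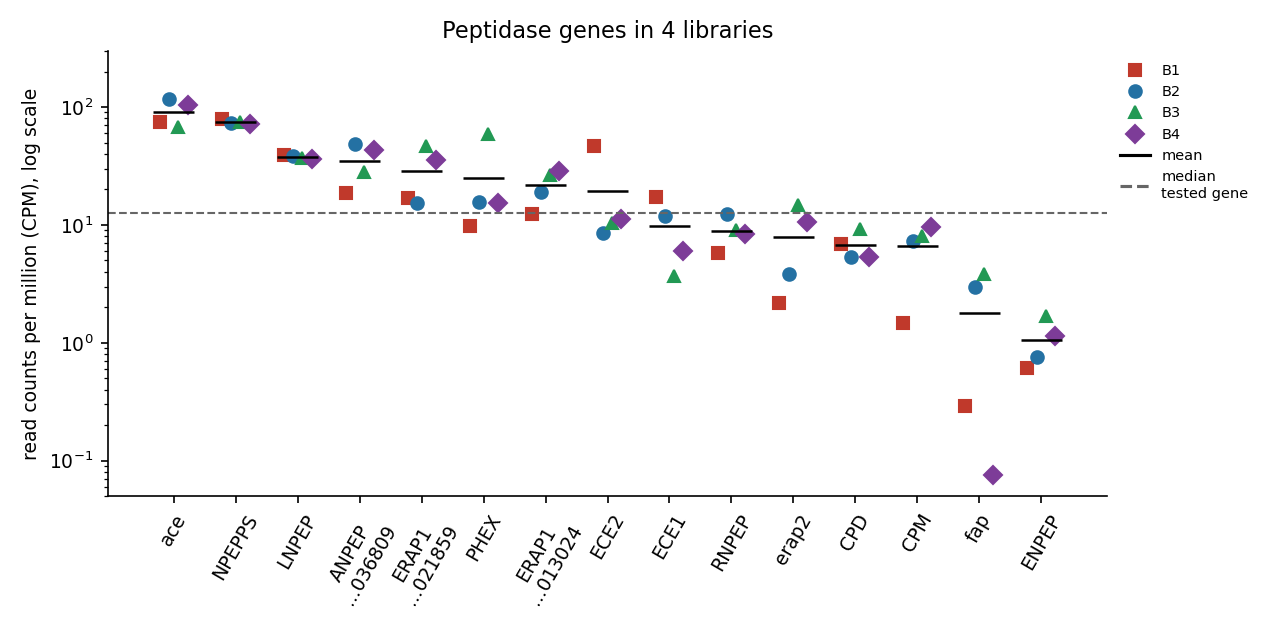
CPM on a log axis for the 15 tested IDs of the peptidase list in libraries B1 to B4, ordered by mean CPM, with the mean as a bar and the median tested gene as a dashed line. ANPEP spreads from 18.7 to 48.5 CPM, NPEPPS and LNPEP spread less and PHEX and erap2 more, and ENPEP lies well under the line.

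In the angiotensin pathway, whose peptides are substrates of several of these enzymes, 4 genes were tested. CTSA, a lysosomal carboxypeptidase gene, lay above the reference level at 41.2 ± 13.4 CPM, and the angiotensinogen gene agt lay below it at 3.92 ± 0.617 CPM. The receptor genes AGTR2 at 9.51 ± 4.18 CPM and AGTR1 (ENSDARG00000018616) at 8.71 ± 3.37 CPM were called in neither direction.

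NDUFA4L2 collected more reads than any other of the 5 IDs. It had 915, 6197, 6116 and 4515 counts in B1 to B4, or 26.8, 168, 171 and 113 CPM. B1 was below the other 3 libraries, which themselves spread from 113 to 171 CPM, and the gap from B1 to the nearest of them was 0.598 of the whole range. The mean of B2 to B4 was 5.62 times the value in B1. NDUFA4L2 averaged 120 ± 67.3 CPM (SD, n = 4), 3.24 ± 0.42 (SE) log2 units above the reference level by edgeR (adjusted p = 7.21e-05), at percentile 93.2 of tested genes by mean CPM. Without B1 the mean was 151 CPM and the level 3.58 log2 units. Its YuGene scores were 0.531, 0.899, 0.909 and 0.859, so B1 was lowest in the authors' score as well.

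The low value of NDUFA4L2 in B1 was set beside all tested genes, after its values had been seen. Its log2 CPM in B1 lay 2.46 units under the mean of B2 to B4, counted as -2.46, and 1.72% of tested genes had a lower value of that difference. ANPEP ENSDARG00000036809, at -1.05, had 22.5% of tested genes below it. CSPG4 went the other way at 0.81, with 74.5% below it, and PDGFRB stood at 1.54. The median over tested genes was -0.12, and 43.7% of them were lowest in B1, so being lowest there is common while a difference of the size seen for NDUFA4L2 is not.

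**Figure D4:**
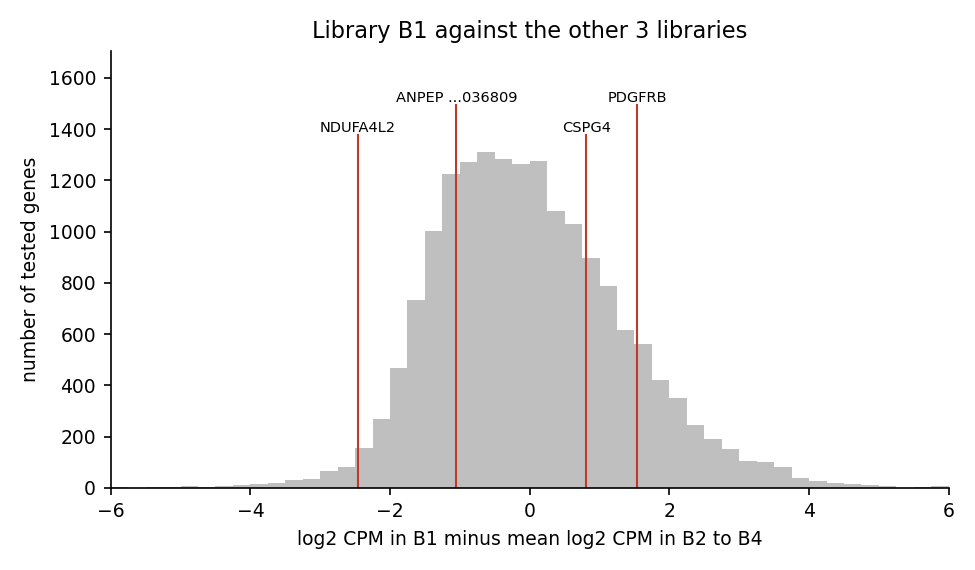
Histogram of log2 CPM in B1 minus the mean log2 CPM in B2 to B4 over the tested genes, with the 3 tested markers and PDGFRB as vertical lines. NDUFA4L2 lies in the left tail at -2.46, while CSPG4 at 0.81 and PDGFRB at 1.54 lie to the right of the centre.

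The other genes of the NDUFA4 family and of complex IV, the terminal enzyme of the respiratory chain, were also low in B1. Apart from NDUFA4L2, 16 genes of this list were tested, and 15 of them were lowest in B1, with a median difference of -1.35 log2 units. The NDUFA4 paralogue (ENSDARG00000099499) had 95.9, 182, 200 and 194 CPM in B1 to B4. COX4I2, the complex IV subunit gene that is likewise a pericyte marker in mouse brain, had 68.1, 238, 267 and 233 CPM, and COX7C had 77.3, 193, 151 and 155 CPM. Ribosomal protein genes, looked at after these values were seen as abundant genes of another kind, were lowest in B1 for 71 of 73 tested IDs, with a median of -1.05. Within the complex IV list COX6A1 (ENSDARG00000054588), at -3.46, had a larger difference than NDUFA4L2, at -2.46, and cox7a1 stood at -2.06. The part of these shared shifts in the value of NDUFA4L2 was not tested. By the edgeR level test 12 of the 16 genes were above the median level and 3 below, namely cox6b1, cox7a1 and ndufa4b. The shares over all tested genes were 36.8% above and 33.2% below. The paralogue ndufa4b (ENSDARG00000056108) stood at 7.64 ± 1.98 CPM (log2 level -0.73, edgeR adjusted p = 0.0479), and its call was lost by limma-voom and without B2, B3 or B4 (adjusted p from 0.0627 to 0.141). Without B4 the list apart from NDUFA4L2 had 11 genes above and 1 below, and without B2 or without B3 it had 10 above and 2 below. Over all tested genes both kinds of call were fewer in these cases as well.

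**Figure D5:**
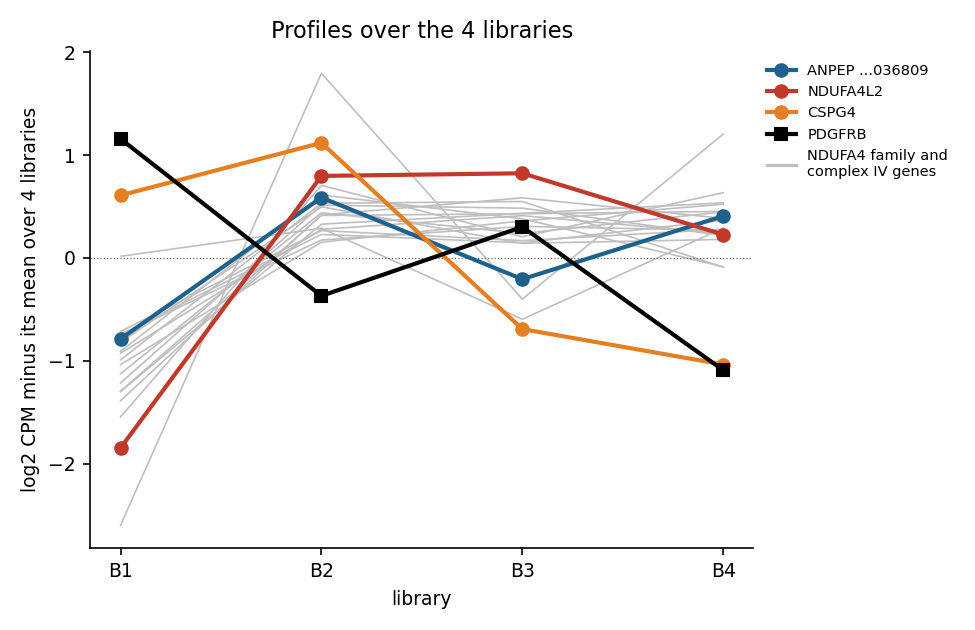
Log2 CPM minus its mean over the 4 libraries for ANPEP ENSDARG00000036809, NDUFA4L2, CSPG4 and PDGFRB, with the other tested genes of the NDUFA4 family and complex IV in grey. The lines join libraries that have no order. NDUFA4L2 and most grey lines are lowest in B1, where PDGFRB is highest.

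Because NDUFA4L2 is a hypoxia target in human cells, targets and regulators of that response were examined. Of 25 tested IDs on that list 11 were lowest in B1 (44.0%, beside 43.7% of all tested genes), and their median difference was -0.05 log2 units. By level 13 of the 25 were called above, 5 below and 7 not at all, beside 36.8% above and 33.2% below over all tested genes. The mitochondrial gene higd1a at 352 ± 46.7 CPM, the transcription factor gene HIF1A (ENSDARG00000034293) at 341 ± 85.3 CPM and the lactate dehydrogenase gene LDHA at 267 ± 77.0 CPM led the list. HIF1A was highest in B1, at 463 CPM against 274 to 335 CPM in B2 to B4, while LDHA was lowest there, at 157 CPM against 276 to 331 CPM.

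CSPG4 was detected in all 4 libraries at low read counts. It had 52, 81, 21 and 18 counts in B1 to B4, or 1.52, 2.19, 0.587 and 0.45 CPM. The values in B1 and B2 were above those in B3 and B4, and with a single group no test between libraries was possible. CSPG4 averaged 1.19 ± 0.823 CPM (SD, n = 4), 3.41 log2 units under the reference level, given as -3.41 ± 0.46 (SE, edgeR adjusted p = 0.00311). By mean CPM it stood at percentile 3.68 of tested genes, close to the filter's limit of 1 CPM. The reference is the median of genes that passed this filter, so the call below says little beyond the low read count. Its YuGene scores were 0.064, 0.077, 0.022 and 0.016 in B1 to B4. Without B1 or without B2 it failed the filter and had no test. Its relative cspg4ba had 1.46, 1.19, 2.15 and 0.25 CPM (mean 1.26 ± 0.787), and cspg4bb had 0.0293, 1.3, 0.251 and 0.0751 CPM. The mean of cspg4bb was 0.119 CPM without B2, against 0.414 CPM with it. No like-named ID reached 3 CPM in any library.

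Other proteoglycan genes were abundant in the same libraries. Apart from CSPG4, 26 were tested, with 16 calls above the median level, 2 below and 8 without a call. Over all tested genes 36.8% were called above and 33.2% below. The syndecan gene sdc4, a cell surface heparan sulfate proteoglycan, had 1475, 3167, 1204 and 1058 CPM in B1 to B4. DCN, which encodes the small matrix proteoglycan decorin and is expressed by fibroblasts, averaged 746 ± 358 CPM, and the brain lectican gene bcan averaged 437 ± 73.7 CPM. The 2 below were GPC3 at 1.08 ± 0.601 CPM and gpc5b at 4.40 ± 1.71 CPM. CSPG4 was the remaining call below. The tested median of the list, CSPG4 included, was 54.6 CPM beside 12.6 CPM over all tested genes.

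Because CSPG4 also marks oligodendrocyte precursors in mammals, genes of those cells are given beside it. OLIG2 had 104, 14.7, 10.8 and 10.7 CPM in B1 to B4 and SOX10 had 61.9, 9.53, 6.03 and 2.98 CPM. Both were highest in B1. CSPG4, at 1.52 CPM in B1, was lower there than in B2 (2.19 CPM) and higher than in B3 (0.587 CPM) and B4 (0.45 CPM). The precursor gene GPR17 had 4.86, 1.25, 0.922 and 0.951 CPM. The summed level of the 15 IDs of the list was between 986 and 1438 CPM per library, and none was at 0 in all libraries. Apart from CSPG4, 14 were tested, giving 6 calls above and 5 below. Without B2 the calls below were 1 of 12, beside 4587 of 16844 genes over all. Without B4 they were 3 of 14, beside 4308 of 16748 genes. The shares over all tested genes were 36.8% above and 33.2% below. The abundant members PTPRZ1 (396 ± 57.3 CPM for ENSDARG00000020871 and 280 ± 84.8 CPM for ENSDARG00000051814) and cspg5b (293 ± 124 CPM) are expressed by astroglia too. The part of these cells in the CSPG4 reads was not tested.

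The markers were also set against PDGFRB, whose regulatory sequence drove the sort, within each library. NDUFA4L2 counts were 0.122, 2.21, 1.41 and 2.45 times those of PDGFRB in B1 to B4. Read counts of NDUFA4L2 were therefore lower than those of PDGFRB in B1 and higher in the other 3 libraries, and the mean log2 difference of -0.02 ± 2.03 (SD) was smaller than its spread (exact sign-flip p = 1). Without B1 it was 0.98. ANPEP ENSDARG00000036809 counts were 0.0854, 0.639, 0.231 and 0.93 times those of PDGFRB, lower in 4 of 4 libraries (log2 difference -1.60 ± 1.55 SD, exact sign-flip adjusted p = 0.167). The difference was -0.95 without B1 and -2.10 without B4. CSPG4 counts were 0.00696, 0.0289, 0.00485 and 0.00978 times those of PDGFRB, also lower in 4 of 4 libraries (-6.57 ± 1.08, exact sign-flip adjusted p = 0.167). Transcript length does not enter the change of such a ratio from library to library. The ratio of NDUFA4L2 to PDGFRB and that of ANPEP to PDGFRB were both lowest in B1 and highest in B4. PDGFRB, the denominator of both, had 219, 76.0, 121 and 46.0 CPM in B1 to B4, so it was highest in B1 and lowest in B4. By CPM both markers were lowest in B1, but NDUFA4L2 was highest in B3 and ANPEP in B2. The marker genes thus did not keep a fixed proportion to the gene used for the sort.

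Spread between libraries differed among the 3 tested markers. The edgeR tagwise biological coefficient of variation, the estimated standard deviation of a gene's true level relative to its mean, was 0.462 for ANPEP ENSDARG00000036809, 0.619 for NDUFA4L2 and 0.652 for CSPG4. The median over tested genes was 0.477, and the markers stood at percentiles 42.7, 84.4 and 87.6. By the distance between log2 CPM profiles over the 4 libraries, each centred on its mean, the named genes most like ANPEP ENSDARG00000036809 were CDK8 (distance 0.104), HIC1 (0.119) and OSGEP (0.143), out of 9400 with at least 10 CPM. Many genes were this close, as 601 of them lay within 0.5. For NDUFA4L2 the nearest were IFT22 (0.128), zgc:136493 (0.154) and VPS26B (0.157), with 95 genes within 0.5. For CSPG4 they included TNFAIP3 (0.309) and HTRA1 (0.493), and 3 of 9401 lay within 0.5. With 52, 81, 21 and 18 counts in B1 to B4, its profile carries more counting error than those of the other markers. Its number of near genes is therefore not comparable with theirs. Profiles over 4 libraries say little about any pair of genes, and these names are given as a description.

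Other pericyte genes were then set beside these markers. Without another sorted population, calls against the median gene cannot test the pericyte label. Apart from these markers, 20 pericyte IDs were tested, PDGFRB among them, of which 15 were called above, 2 below and 3 in neither direction. ENPEP, named above as a pericyte marker in mouse brain and called below, was not on this list and is not counted. Over all tested genes 36.8% were called above and 33.2% below. The number above was 12 by limma-voom, without B2 and without B4, 13 without B3 and 16 without B1. For all genes it was 6257 of 17283 by limma-voom, 5558 of 16844 without B2 and 6959 of 16693 without B1. Without B3 and without B4 it was 5466 and 5405 of 16748. The potassium channel subunit gene KCNE4 at 319 ± 424 CPM, the G protein signalling regulator gene rgs5b at 272 ± 283 CPM and ZIC1, a zinc finger transcription factor gene, at 263 ± 142 CPM led. The mean of KCNE4 was 107 CPM without B1, and that of rgs5b was 136 CPM without B2. Like NDUFA4L2, rgs5b was lowest in B1, at 26.8 CPM against 178 to 679.6 CPM, while KCNE4 and ZIC1 were highest there. Among these 20 IDs 11 were lowest in B1 (55%, beside 43.7% of all tested genes).

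Genes of other cell types that a sort or these markers could include were present as well, and none of the IDs on the lists was at 0 in all libraries. For the calls that follow, 36.8% of all tested genes were above and 33.2% below. Of 14 tested smooth muscle IDs 9 were called above and 3 below, with the highest means in MYL9 (ENSDARG00000008030) at 269 ± 48.0, tpm1 at 125 ± 51.1 and TAGLN (ENSDARG00000033466) at 109 ± 58.2 CPM. Fibroblast genes, relevant to ANPEP, had 9 of 14 above and 2 below (1 below without B3), led after DCN by COL1A2 at 577 ± 669 and col1a1a at 508 ± 586 CPM (246 and 219 CPM without B3). Their summed level was 1681, 2067, 5488 and 1073 CPM in B1 to B4. In B3 COL1A2 had 1572 and col1a1a 1375 CPM of it. Microglia and macrophage genes had 3 of 15 above and 10 below, led by apoeb at 1434 ± 803, cd74b at 250.3 ± 185 and cd74a at 202 ± 122 CPM. These 3 were the only calls above, and the tested median of the list was 4.54 CPM beside 12.6 CPM over all tested genes. The summed level of the list was 1419, 1301, 1739 and 3316 CPM in B1 to B4. Most of it came from apoeb, at 1241, 942, 934 and 2620 CPM, while cd74b was highest in B3 at 452 CPM. Endothelial genes had 4 of 16 above and 9 below, led by MFSD2A (ENSDARG00000035909) at 108 ± 22.0 CPM, CLDN5 (ENSDARG00000043716) at 71.4 ± 112 CPM and MFSD2A (ENSDARG00000030630) at 65.7 ± 22.9 CPM. The named IDs were among the calls above, whereas the tested median of the endothelial list was 5.43 CPM. The mean of CLDN5 was 15.4 CPM without B1, and its call was lost there and by limma-voom (log2 0.29 and 1.38, adjusted p = 0.206 and 0.118). Radial glia genes had 12 of 17 above and 4 below, led by GLUL (ENSDARG00000099776) at 16803 ± 7006, SLC1A2 (ENSDARG00000102453) at 9337 ± 2322 and FABP7 (ENSDARG00000007697) at 6947 ± 4078 CPM. The part of these cell types in the reads of ANPEP or NDUFA4L2 was not tested.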

How the data were processed

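Raw counts of reads for each Ensembl ID in 4 libraries were deposited by the authors as whole numbers. They also deposited YuGene values, a score from 0 to 1 set within each library. Per the submitters' processing notes, bcl2fastq, R 3.2.2 and the build GRCz10 were used. The aligner, counting tool and annotation were not given in the sources used here. Columns were taken as unnumbered libraries of the single group, with 0 columns left out. Symbols came from a table of names, which named 26269 of the 32105 IDs.

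Counts were scaled by TMM factors (edgeR 4.0.16, R 4.3.3), between 0.948 and 1.04. Testing was limited to genes reaching 1 CPM in 2 or more libraries. Each gene's mean was estimated by edgeR's quasi-likelihood fit and compared, two-sided, with the median fitted level, with Benjamini-Hochberg adjustment at 0.05. The F statistic was formed by hand as edgeR forms it, and tested on simulated data. A planned division by transcript length was dropped, as the tables used held no transcript lengths. Within-library differences used log2 CPM with a prior count of 2 and exact sign-flip tests, adjusted over 8 comparisons. Alternatives used DESeq2 1.42.0, limma 3.58.1, no filter, a prior count of 0.5 and each library left out.

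Of 186 entries in 12 gene lists, 19 matched no ID. An entry took each ID whose symbol was the entry or the entry with a or b added. The markers and lists were chosen with earlier results of these data known. Named genes were the markers, PDGFRB, all tested peptidases, the 3 highest of each list by mean CPM and the 3 nearest profiles per tested marker, plus like-named relatives. Others named in the text (GPR17, OLIG2, SOX10, GPC3, gpc5b, dpp4 and the calls below in complex IV) were chosen after their values were seen. Some genes that the rule or lists name are not reported here.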

Additional observations from a re-analysis of the deposited data

Results flagged for a closer look

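In 9 of 78 values examined, 1 of the 4 libraries stood apart from the rest by Dixon's gap ratio, the gap to the nearest library divided by the whole range. The cutoff used gives about 1 in 20 for independent, normally distributed values. Most values here were raw CPM, some overlapped, and many genes were taken for a high mean CPM, so 9 of 78 cannot be set against that rate. None of the 5 marker IDs was among them. B1 was the separate library, on the high side, for KCNE4 (ENSDARG00000068257, 0.98), CLDN5 (ENSDARG00000043716, 0.959), ECE2 (ENSDARG00000102142, 0.93) and ndufa4l2b (ENSDARG00000087907, 1, from 4 counts). It was on the low side for NDUFA4 (ENSDARG00000099499, 0.831) and AGTR1 (ENSDARG00000018616, 0.911). B3 was high for COL1A2 (ENSDARG00000020007, 0.847) and PHEX (ENSDARG00000062363, 0.877). B4 was high for cspg5b (ENSDARG00000099793, 0.917).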

How the results depend on the processing

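The levels of ANPEP ENSDARG00000036809 (log2 1.16 to 3.46) and NDUFA4L2 (2.93 to 5.25) stayed above the reference level and that of CSPG4 (-3.56 to -1.40) below it in every alternative that tested them. Their adjusted p ran up to 0.0175, 0.00104 and 0.0415. Without the filter 12310 of 28308 tested genes lay above and 11536 below, against a reference level of 3.14 CPM. CPD and ndufa4b were then called above it (1.09 and 1.28), as were PHEX, ECE2, ECE1, RNPEP, erap2, the carboxypeptidase M gene, AGTR1 and AGTR2 (1.07 to 2.99), while fap (-0.80) and cspg4ba (-1.31) lost their calls. Apart from the markers, calls above and below were then 12 and 5 of 18 peptidases, 3 and 2 of 6 angiotensin genes, 24 and 3 of 28 proteoglycans, 14 and 1 of 17 complex IV genes, 21 and 2 of 27 hypoxia genes, 19 and 4 of 23 pericyte, 11 and 7 of 20 smooth muscle, 12 and 1 of 15 fibroblast, 10 and 0 of 14 oligodendrocyte precursor, 9 and 3 of 19 endothelial, 7 and 11 of 26 microglial and 13 and 0 of 17 radial glia genes. These list calls stand beside the 12310 above and 11536 below of 28308 genes in that setting, not beside the shares with the filter. List calls thus depend on the filter through the level it sets. Leaving out a library gave 5405 to 6959 genes above and 4308 to 6395 below. The difference of NDUFA4L2 from PDGFRB was 0.98 without B1, against -0.02 with all libraries, and ran from -0.46 to 0.98 over the libraries left out. The ANPEP share ran from 99.5 to 99.8%. With a prior count of 0.5 the differences between ANPEP ENSDARG00000036809 and the other ANPEP IDs were 10.22 and 9.29 log2 units, against 8.81 and 8.15, so their size depends on the prior. No comparison between groups, paired or not, was possible because there is a single group. Only the within-library differences between genes were paired, by library. List counts without each library were added after seeing the data. CSPG4 had no test without B1 or without B2. Division by length was not run. Depth limits statements on the lesser ANPEP IDs and ndufa4l2b.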
